A study of Mus musculus with 39 samples.

Results

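The stathmins and beta tubulins described here are 9 genes of the 39017 in the deposited count table, chosen by symbol: Stmn1, Stmn2, Stmn3, Stmn4, Tubb3, Tubb2a, Tubb2b, Tubb5 and Tubb6. They were chosen with earlier results of these libraries known, in which Stmn2 stood out between T cell high and T cell low clones, so their high against low values are given as a description without a test. The series sequenced RNA of mouse pancreatic tumour cells, sorted from tumours that grew for 3 weeks under the skin of untreated C57BL/6 mice. Its titles name 20 tumour cell clones, and carry the prefix yfp, and clones whose names share their digits were taken as clones of 1 parent line. T cell phenotype classed 6 clones as high (14 libraries), 2 as intermediate (4 libraries) and 9 as low (18 libraries). A further 3 clones with 1 library each had no class and entered no comparison. The clone, not the library, was taken as the replicate, because nothing in the labels ties each library to an animal of its own. Each class is a set of clones, some of them related through a parent line.

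Beta tubulins pair with alpha tubulins to form the subunits of microtubules. Tubb5 is the beta tubulin that most dividing cells use, Tubb2a, Tubb2b and Tubb6 are further forms, and Tubb3 is the form that marks neurons and some carcinomas. Stathmins bind free tubulin dimers and promote the shrinking of microtubules, and phosphorylation switches this off. Stmn1 is found in many proliferating cells, whereas Stmn2, Stmn3 and Stmn4 are carried on membranes of neurons, where Stmn2 serves axon growth and repair. Many neuronal genes are held silent outside the nervous system by the repressor REST, which binds a DNA element called RE1.

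The 39 libraries were of 2 kinds. In 19 heart-bearing libraries transcripts of 4 heart genes (Myh6, Myh7, Myl2, Mb) together made up 152 to 4893 CPM (a gene's count relative to the total of its library). In the other 20, called heart-free because that sum was under 10 CPM, it was at most 0.235 CPM. Library totals ran from 7638130 to 103794674 counts, with a median of 34565903, and the members' CPM were also scaled with TMM factors. The epithelial markers of the tumour were present in both kinds, with a sum of 3321 to 10629 CPM in heart-bearing and 4577 to 13213 CPM in heart-free libraries. The neuron markers summed to no more than 21.5 CPM in heart-bearing and 24.2 CPM in heart-free libraries. Some heart-bearing libraries of different clones were closely alike. A chi-square comparison of counts over genes gave 3.41 to 9.24 per degree of freedom for all 15 pairs among 6 of them, from the high clones yfp_6499c4, yfp_6555c3, yfp_6556c4 and yfp_6620c1 and the low clones yfp_2699c4 and yfp_6419c5. The closest pair of heart-free libraries, from 1 clone, had 29.2. Of the heart-bearing libraries 1 of 19 was closest to a library of its own clone, and of the heart-free ones 6 of 20. Only 1 pair of heart-bearing libraries shared a clone, against 4 heart-free pairs, so the design holds these counts down. Closest to a library of their own kind were 18 of 19 and 16 of 20. Because 6 heart-bearing libraries of different clones were so alike, results are given first for heart-free libraries. The members' differences between the kinds are also given without these 6, called the closely alike libraries, for the members that changed.

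In heart-free libraries the members spanned the whole range from the tubulins of every dividing cell to genes at the edge of detection. Per kilobase of exon and as mean ± SD over 16 clones, Tubb5 stood at 229.9 ± 48.9 CPM, Stmn1 at 83.3 ± 35.5 CPM and Tubb6 at 51.6 ± 21.2 CPM. Tubb2b followed at 32.4 ± 16.6 CPM per kilobase, Tubb2a at 18.4 ± 8.61 and Tubb3 at 12.95 ± 6.99. Stmn2 came next at 4.28 ± 9.65 CPM per kilobase, with an SD larger than its mean. Stmn4 had 0.27 ± 0.556 CPM per kilobase and Stmn3 0.026 ± 0.0355. Neighbours in this order from Stmn1 to Tubb3 lay within the larger of their SDs, while Tubb5 stood clear of the rest. Tubb4b, a ubiquitous beta tubulin that is no member, lay at 62.3 ± 12.9 CPM per kilobase between Stmn1 and Tubb6.

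**Figure D1:**
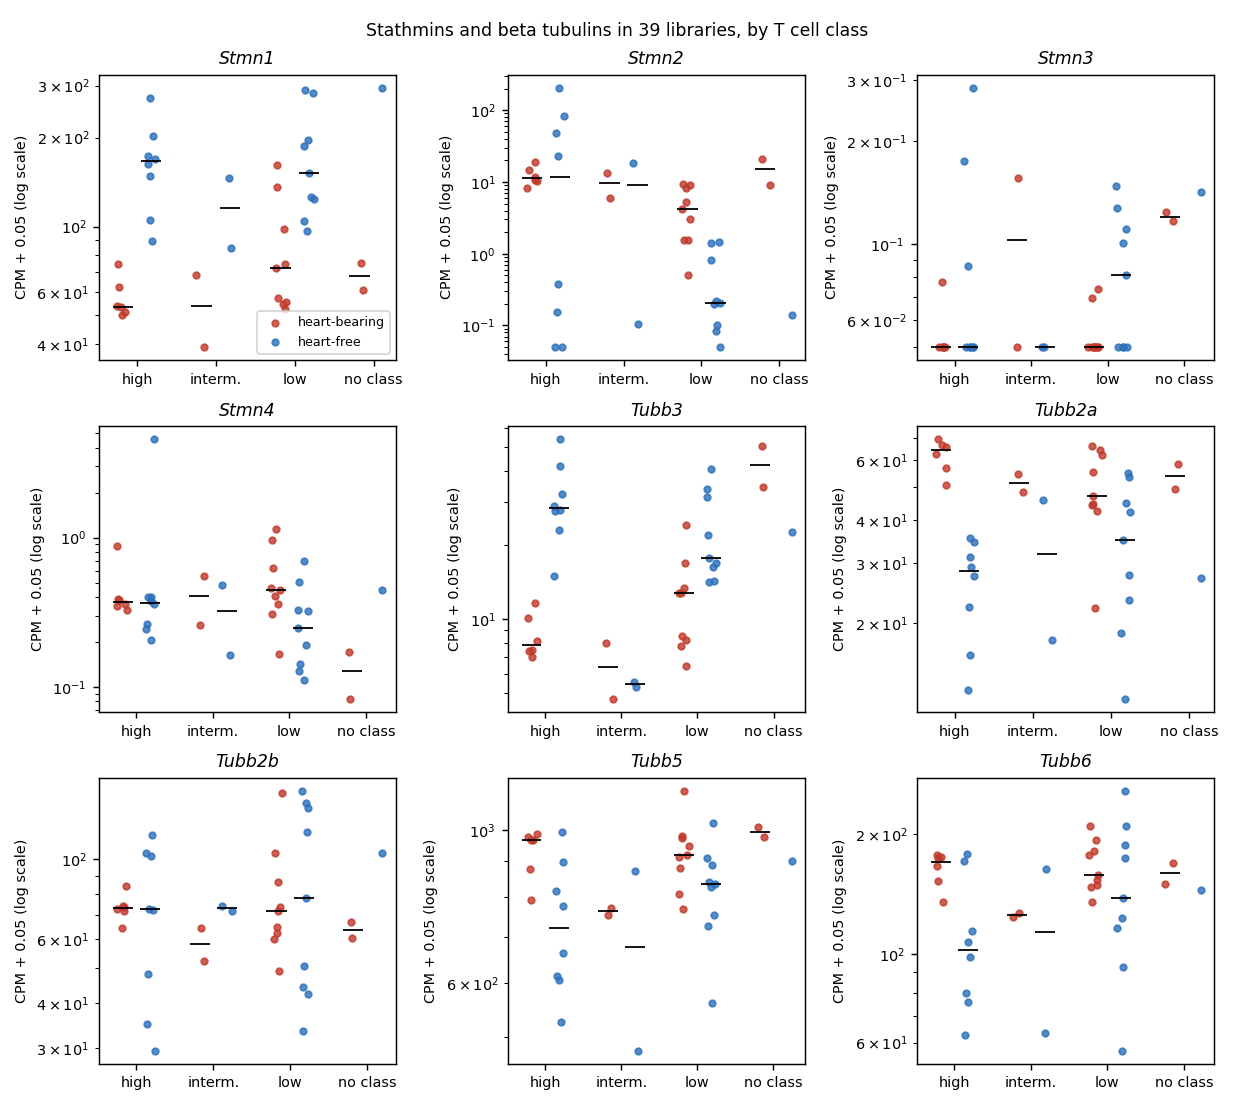
Level of each member in each of the 39 libraries, as CPM + 0.05 on a log scale, by T cell class, with heart-bearing libraries in red left of heart-free libraries in blue and a bar at the median of each set of more than 1 library. Stmn2 ran from 0 to 207.2 CPM in heart-free libraries, whereas Tubb5 stayed between 477.9 and 1023 CPM.

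Stmn2, the stathmin of growing axons, was the member that varied most among clones. Its gene lies at chr3:8509360-8561606 on the plus strand of GRCm38. In heart-free libraries of the high clones it had 207.2 CPM in yfp_6499c4, 83.5 CPM in yfp_6555c3, 47.5 CPM in yfp_7160c2 and 23.0 CPM in yfp_6620c1. The other high clones were low, with 0.326 CPM in yfp_6556c4 and with 0, 0 and 0.105 CPM in the 3 libraries of yfp_2838c3. In the low clones, 9 heart-free libraries ran from 0 to 1.42 CPM with a median of 0.155 CPM. Thus 4 of 6 high clones lay above every one of 8 low clones, and the remaining 2 lay inside the range of the low clones. The intermediate clones were split in the same way, with 18.1 CPM in yfp_7160c5 and 0.056 CPM in yfp_6422c5.

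The fitted difference of Stmn2 between high and low clones was log2 6.92 ± 1.43 (SE) in heart-free libraries, given as a description because the gene was chosen for it. Over all libraries it was 3.85 ± 0.71, without the 6 closely alike libraries it was 5.01 ± 0.99, and in heart-bearing libraries alone 1.38 ± 0.51. In the fit over all genes 0% of 15635 genes in heart-free libraries and 0% of 18551 genes in all libraries passed an adjusted p of 0.05 (edgeR quasi-likelihood test, Benjamini-Hochberg adjusted). Unadjusted, 2095 and 2176 genes had p under 0.05, and DESeq2 called 299 and 123.

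Markers of other cell types were also set against class in these libraries, and their part in the Stmn2 values was not tested. All 5 leukocyte markers and all 4 measured macrophage markers had a positive high minus low difference in heart-free libraries, with medians of log2 1.83 and 1.66. So had all 5 fibroblast markers (median 1.16), all 4 endothelial markers (1.13) and all 6 tumour epithelium markers (0.35), and none of these genes passed the test. The library medians of the fibroblast and endothelial sums went the other way. They were 371.9 and 9.04 CPM in high clones and 783.3 and 13.9 CPM in low clones. The highest of both sums came from the high clone yfp_6555c3, with 150.8 CPM of endothelial markers. The fibroblast markers summed to 292.3, 12312, 559.0 and 430.9 CPM in yfp_6499c4, yfp_6555c3, yfp_7160c2 and yfp_6620c1. The summed leukocyte markers were 249.8, 304.1, 18.3 and 184.0 CPM in the 4 high clones with much Stmn2, named in the order above. In the high clones with little Stmn2 they were 122.5 CPM in yfp_2838c3 and 16.5 CPM in yfp_6556c4. The intermediate clones had 353.8 CPM in yfp_7160c5 and 9.30 CPM in yfp_6422c5, and low libraries had 13.4 to 178.7 CPM. The summed neuron markers were 1.48 to 7.03 CPM in high and 1.25 to 24.2 CPM in low heart-free libraries. In the 4 high clones with much Stmn2 they were 2.15, 3.57, 1.48 and 2.19 CPM, in the same order. Schwann cell markers summed to 67.3 to 99.6 CPM in high and 42.0 to 117.5 CPM in low libraries, and islet markers to at most 1.15 and 0.295 CPM. In bulk RNA fewer cells with a transcript and less of it per cell cannot be told apart.

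Clones of 1 parent line were set side by side. The heart-free library of the high clone yfp_6499c4 held 6828 Stmn2 counts, against 2 in that of the low clone yfp_6499c3, a ratio of 4113 with a 95% exact binomial interval of 1138 to 33969. The counts were 9 in the high clone yfp_6556c4 and 1 in the low clone yfp_6556c3, a ratio of 10.1 (1.40 to 441.7). They were 1695 in the high clone yfp_7160c2 and 628 in the intermediate clone yfp_7160c5, a ratio of 2.62 (2.39 to 2.88). Each ratio compares 1 library with 1 library, and the intervals cover counting error only. Tubb3 was also higher in the high clone of each pair, by ratios of 1.60 (1.49 to 1.71), 1.95 (1.73 to 2.20) and 2.86 (2.41 to 3.40) in the same order. Stmn1 gave ratios of 1.66, 0.939 and 1.01, and Tubb5, the main beta tubulin, 1.32, 1.08 and 1.28.

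**Figure D2:**
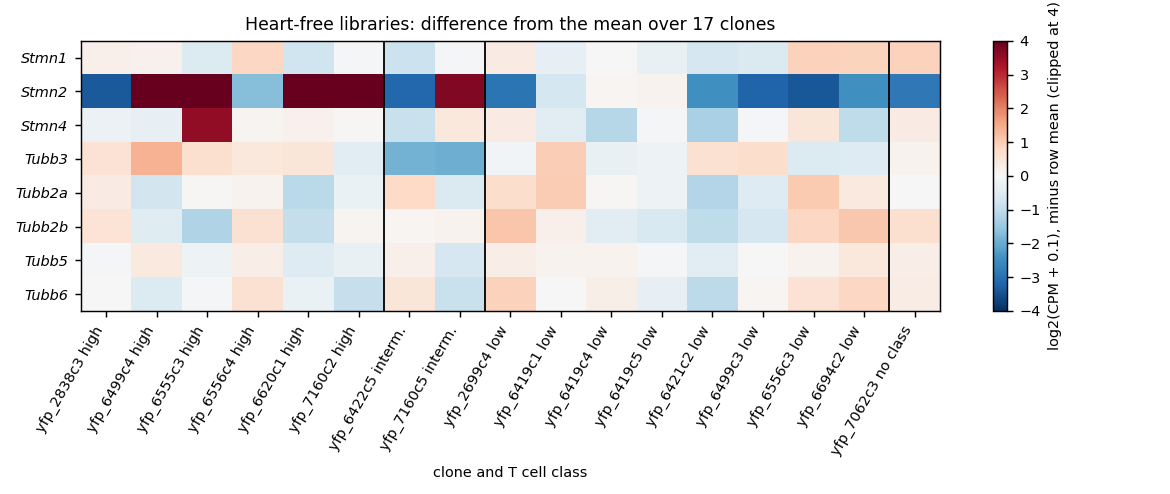
Members in heart-free libraries of 17 clones, as the difference of log2(CPM + 0.1) from the mean of the row, with high clones at the left, then intermediate, low and unclassed clones, and colours clipped at 4 log2 units. Stmn2 is dark red in 4 high clones and the intermediate clone yfp_7160c5, and Tubb3 is blue in both intermediate clones.

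Among 11111 genes ranked by the SD of their log2 level over the 17 clones with a heart-free library, Stmn2 was at place 6 with an SD of 3.93. Tubb3 was at place 1521 and Tubb5 at place 7114. The gene most like Stmn2 across these clones was App, the amyloid precursor gene, with a Pearson r of 0.922 and a Spearman rho of 0.723 over 17 clones, at 596.5 to 2466 CPM. The next were Pih1d1, Cldn3, Slc25a17, Fam46a, Nxpe3, Nek8, Agr2, Trim15 and Mettl20, with r of 0.858 to 0.878. Cldn3, which encodes a tight junction protein, ran from 0.0252 to 165.1 CPM, and Agr2, a secretory pathway gene of epithelia, from 0.112 to 166.4 CPM, both highest in the intermediate clone yfp_7160c5. The proliferation genes Mki67, Top2a and Pcna gave r = -0.815, -0.586 and -0.558 with Stmn2 (rho -0.743, -0.510 and -0.429). Tubb6 gave -0.580 (rho -0.522). Rest gave -0.693, with a weaker rho of -0.441. All these are descriptions over clones that share parent lines, and the top genes were picked out of 10633.

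In heart-bearing libraries the clone pattern of Stmn2 was compressed. The 6 libraries of high clones had 8.27 to 18.9 CPM with a median of 11.2 CPM, and the 9 of low clones 0.457 to 9.44 CPM with a median of 4.16 CPM. In yfp_6499c4 the heart-bearing library had 10.6 CPM, against 207.2 CPM in the heart-free one, and in yfp_6555c3 10.4 CPM against 83.5 CPM. The 6 closely alike libraries had 9.16 to 14.6 CPM, a 1.60-fold range, while the heart-free levels of the same 6 clones spanned 0.0844 to 207.2 CPM. In heart-bearing libraries of low clones Stmn2 followed the heart genes: r was 0.997 and rho 0.983 over 9 libraries of 8 clones, and r was 0.994 without the 2 libraries farthest from the median heart sum. These low libraries held 1.82 to 2.92 CPM of Stmn2 per 1000 CPM of heart transcripts. Libraries of high clones held 2.22 to 7.73 and those of intermediate clones 2.36 and 5.38. The high clones gave r = -0.516 over 6 libraries, of which 4 are among the closely alike. All points share the scaling of their library. The liver markers of the low libraries summed to 496.3 to 14346 CPM, and their part was not tested.

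**Figure D3:**
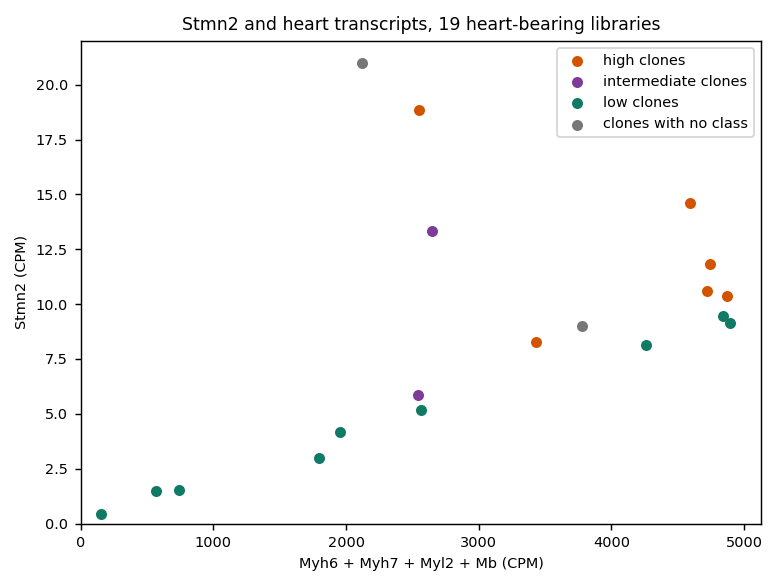
Stmn2 against the summed heart genes Myh6, Myh7, Myl2 and Mb, both in CPM, in 19 heart-bearing libraries coloured by T cell class. The low clones lie on a line from 0.457 CPM of Stmn2 to 9.44 CPM, and the library with the most Stmn2, 20.98 CPM, is from a clone with no class.

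Stmn1, the stathmin of proliferating cells, was the most abundant of its family, with overlapping ranges in high and low clones. Its gene lies at chr4:134468320-134473843 on the plus strand. It had 89.2 to 271.9 CPM with a median of 166.0 CPM in 8 heart-free libraries of high clones, and 96.2 to 289.6 CPM with a median of 151.5 CPM in 9 of low clones. The intermediate clones had 84.7 CPM in yfp_6422c5 and 146.3 CPM in yfp_7160c5. The genes most like it over 17 clones were Dpysl2, which encodes a tubulin-binding protein of axons, with r = 0.895, Topors with 0.875 and Sugt1 with 0.868. With Mki67, Top2a and Pcna the r was 0.659, 0.471 and 0.556. Of the 50-base stretches of its transcripts 18.9% also occur in other genes, 17.9% in the gene Gm11223, so a part of its reads may have been counted elsewhere.

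Stmn3 and Stmn4, both neuronal stathmins, were barely detected. Their genes lie at chr2:181306459-181314500 on the minus strand and chr14:66344296-66361680 on the plus strand. Stmn3 was at 0 to 0.236 CPM in 20 heart-free libraries and 0 to 0.105 CPM in 19 heart-bearing ones, and it was the 1 member that did not pass the filter on low counts. Stmn4 was at 0.157 to 4.49 CPM in 8 heart-free libraries of high clones and 0.0609 to 0.648 CPM in 9 of low clones. Its highest value came from yfp_6555c3, and the other high libraries reached 0.349 CPM. The same library had the highest sums of fibroblast markers, 12312 CPM, and of endothelial markers, 150.8 CPM, among the heart-free libraries, and their part in the Stmn4 value was not tested. The genes most like Stmn4 were Cpxm1, Serping1 and Adam19, with r of 0.848 to 0.870, each highest in that clone. For Stmn3, near its floor, they were Raet1e, Mtbp and Wdr90, with r of 0.805 to 0.823. The fitted high minus low difference of Stmn4 in heart-free libraries was log2 2.11 ± 0.76, and it was 0.31 without yfp_6555c3.

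Among the beta tubulins Tubb2a and Tubb2b are near-copies in their coding parts, so their counts are hard to tell apart, while the others differ more. The first 30 coding bases of 4 members the results turn on are given below, read 5′ to 3′ from GENCODE M21 transcripts on GRCm38. Over this short stretch Tubb3 and Tubb5 are as alike as Tubb2a and Tubb2b, so it does not show the difference. The first 12 bases, in capitals, encode the start of the protein that the cell reads when it degrades tubulin messages in answer to free tubulin.
Tubb3: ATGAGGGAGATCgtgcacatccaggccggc
Tubb2a: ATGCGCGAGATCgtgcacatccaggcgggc
Tubb2b: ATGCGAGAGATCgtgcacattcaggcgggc
Tubb5: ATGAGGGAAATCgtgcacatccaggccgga

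These starts lie at chr8:123411606-123411635 on the plus strand for Tubb3, chr13:34077900-34077929 on the minus strand for Tubb2a, chr13:34130204-34130233 on the minus strand for Tubb2b and chr17:35838024-35838053 on the minus strand for Tubb5, each inside 1 exon. Over the coding sequence Tubb2a and Tubb2b, neighbours on chromosome 13, were 96.5% identical, and the other pairs of these 4 genes 82.3% to 84.6%. Of the 50-base stretches of Tubb2a, 45.6% occur in Tubb2b, and 31.3% of those of Tubb2b occur in Tubb2a. Their counts are therefore uncertain. Tubb3 and Tubb6 shared no such stretch with another gene.

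Tubb3, the neuronal beta tubulin, was present in all clones and lowest in the intermediate class. The 2 heart-free libraries of intermediate clones had 5.25 CPM in yfp_7160c5 and 5.51 CPM in yfp_6422c5. The 8 of high clones had 14.99 to 53.9 CPM with a median of 28.4 CPM, and the 9 of low clones 14.1 to 40.8 CPM with a median of 17.7 CPM. Both intermediate clones lay below all other heart-free libraries. How many of all genes show such a gap was not counted, and Tubb3 is 1 of 9 members looked at. High and low clones overlapped, with 1 of 6 high clones above every low clone. The genes most like Tubb3 over 17 clones were Ppt2 (r = 0.845), Hspb11 (0.769) and Arl3 (0.737).

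The intermediate clones were compared with the others in 1 fit over 17 clones. Against low clones Tubb3 differed by log2 -1.61 ± 0.42 over all libraries (adjusted p = 0.369, edgeR) and by -2.11 ± 0.51 in heart-free libraries (adjusted p = 0.246), so it did not pass. Against high clones it differed by -1.77 ± 0.43 over all libraries and -2.54 ± 0.53 in heart-free libraries, with adjusted p of 0.99999 and 0.999913. DESeq2 gave -1.61 with an adjusted p of 0.0428 against low clones. Only 0.00499% of 20028 genes passed in intermediate against low clones, which is 1 gene, H2-M2, and 0% in intermediate against high clones, at unadjusted p under 0.05 for 1009 and 414 genes. Without yfp_6422c5 99 genes passed against low clones, and without yfp_7160c5 0 did, where the 1 intermediate clone left is assumed to vary like the clones of the other classes. In their heart-bearing libraries the intermediate clones had 4.69 and 7.94 CPM of Tubb3, inside or below the 6.96 to 11.6 CPM of high and the 6.42 to 24.2 CPM of low clones.

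Of the other members, 0 of 7 tested passed in either comparison of the intermediate clones. Stmn2 differed by log2 1.87 ± 0.93 from low clones, and this value rested on yfp_7160c5, without which it was -0.21. Against high clones Stmn2 differed by -1.96 ± 1.23. Tubb5 had 872.4 CPM in yfp_6422c5 and 477.9 CPM in yfp_7160c5, and the second was the lowest of all libraries.

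The promoter of Tubb3 is shown because both intermediate clones lay below all other heart-free libraries for this gene. It covers 250 bases before to 50 bases after the RefSeq start, on GRCm38.p6 at chr8:123411303-123411602, plus strand. Capitals mark short matches, from 5′ to 3′. They are to the left part of RE1 and a CCAAT box, both on the minus strand. Then follow a TATA box and a match to the right part of RE1 on the minus strand.
Tubb3 promoter: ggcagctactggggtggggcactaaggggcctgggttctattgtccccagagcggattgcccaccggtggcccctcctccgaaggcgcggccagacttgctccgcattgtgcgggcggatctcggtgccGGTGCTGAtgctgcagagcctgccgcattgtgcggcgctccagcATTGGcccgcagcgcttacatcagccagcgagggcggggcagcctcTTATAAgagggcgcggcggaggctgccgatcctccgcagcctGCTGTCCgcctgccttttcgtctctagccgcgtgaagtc

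The motifs were searched on both strands as TCAGCACC for the left and GGACAGC for the right part of RE1, CCAAT for the CCAAT box, TATAA for the TATA box and CACGTG for the E-box. In Tubb3 they began at -121, 12, -77 and -30 bases from the start, the TATA match also read on the other strand 1 base earlier. The left part of RE1 occurred in 1.65% of 32851 promoters of the same length, the right part in 6.56%, the CCAAT box in 37.4%, the TATA box in 24.9% and the E-box in 7.15%. In a full element these parts stand close together, with the left part first on its own strand. Neither held here. Of the 9 members 4 had a promoter in the table: Tubb2a held a TATA box at -29, Tubb5 held CCAAT boxes at -198 and -90 and an E-box at -75, and Stmn3 held none of these letters. A match is a description of the sequence and not a binding site.

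Tubb5 was the most even member. In heart-free libraries it had 525.8 to 991.5 CPM in high clones and 559.9 to 1023 CPM in low clones. The genes most like it over 17 clones were Lgals1, which encodes galectin-1, with r = 0.917, Slc35e4 with 0.891 and the alpha tubulin Tuba1b with 0.883. Tubb6, at 62.5 to 178.3 CPM in high and 57.2 to 256.5 CPM in low clones, was most like Specc1 (r = 0.912) and the glycolysis genes Gapdh (0.901) and Tpi1 (0.875). Tubb2b, at 29.4 to 116.6 CPM in high and 33.5 to 154.5 CPM in low clones, was most like Exoc2 (0.955), Ranbp9 and Smad5. Tubb2a, at 12.7 to 35.5 CPM in high and 11.9 to 54.9 CPM in low clones, was most like Kif4, a mitotic kinesin (0.818), then Ahnak2 and Zmynd11. Among these 4 tubulins r was 0.526 to 0.738 for all 6 pairs over the 17 clones, and Stmn1 gave r = 0.781 with Tubb2b.

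Members were then compared between heart-bearing and heart-free libraries of the same clone. The fit used 16 heart-bearing and 18 heart-free libraries of 15 clones with the clone as a block. It did not use the T cell class by which members were chosen. In the chi-square comparison, pairs of heart-bearing libraries from different clones had a median of 92.65 per degree of freedom, and such heart-free pairs 258.5. Heart-bearing libraries may thus not be independent of each other, as the fit assumes. The p-values and counts of clones below may overstate the replication. Stmn1 and Tubb3 fell in heart-bearing libraries, and Stmn2, Tubb2a, Tubb5 and Tubb6 rose. That is 4 of 8 tested members higher, where 31.8% of all 19533 genes were, and 2 lower, where 27.3% were. In all 59.2% of genes passed, so the members' share is near that of all genes. Without the closely alike libraries 9096 of 19055 genes passed, 4507 higher and 4589 lower. The median log2 difference was 0.31 over the members tested and 0.03 over all genes. Of the heart-bearing libraries 18 have the number 1 at the end of their title, and of the heart-free ones 1 has. The labels do not say what this number counts, and it and the library kind cannot be told apart in nearly all clones.

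Stmn1 had 39.05 to 161.9 CPM with a median of 60.8 CPM in 19 heart-bearing libraries, and 84.7 to 295.3 CPM with a median of 157.2 CPM in 20 heart-free ones. It was lower in the heart-bearing library in 15 of 15 clones, by log2 -1.19 ± 0.11 (adjusted p = 1.47e-08, edgeR). Tubb3 had 4.69 to 50.6 CPM with a median of 8.46 CPM in heart-bearing and 5.25 to 53.9 CPM with a median of 22.9 CPM in heart-free libraries. It was lower in the heart-bearing libraries of 14 of 15 clones, by log2 -1.19 ± 0.20 (adjusted p = 3.29e-05). Both genes thus moved the same way in nearly every clone, and both held without the 6 closely alike libraries, at -1.06 and -0.92.

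Tubb2a had 21.997 to 69.1 CPM with a median of 55.5 CPM in heart-bearing and 11.9 to 54.9 CPM with a median of 28.4 CPM in heart-free libraries. It was higher in the heart-bearing libraries of 15 of 15 clones, by log2 0.93 ± 0.16 (adjusted p = 4.45e-05), and by 0.57 without the closely alike libraries (adjusted p = 0.00969). Its near-copy Tubb2b differed by 0.04 ± 0.15 (adjusted p = 0.832). Tubb5 was higher by 0.24 ± 0.08 (adjusted p = 0.00922) and Tubb6 by 0.40 ± 0.14 (adjusted p = 0.0179), in 12 and 11 of 15 clones. Neither of these held without the closely alike libraries, at 0.15 (adjusted p = 0.194) and 0.29 (adjusted p = 0.216).

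Stmn2 was higher by log2 3.14 ± 0.94 in heart-bearing libraries (adjusted p = 0.00714), and by 4.14 ± 0.86 without the closely alike libraries. The direction depended on the clone: it was higher in the heart-bearing library in 7 of 7 low clones and in 2 of 6 high clones. In low clones alone the difference was 4.22 ± 0.60 (adjusted p = 0.00042), and in high clones alone 1.16 ± 1.82 (adjusted p = 0.637). The difference between these differences was tested after the data were seen and did not pass for any member, with 0% of 19394 genes called and 1926 at an unadjusted p under 0.05. For Stmn2 it was -2.92 ± 1.97 (adjusted p = 0.635), and for Tubb3 and Tubb2a -0.84 ± 0.28 and 0.83 ± 0.31. Without the closely alike libraries it had the opposite sign for Stmn2, 0.87 ± 1.98.

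**Figure D4:**
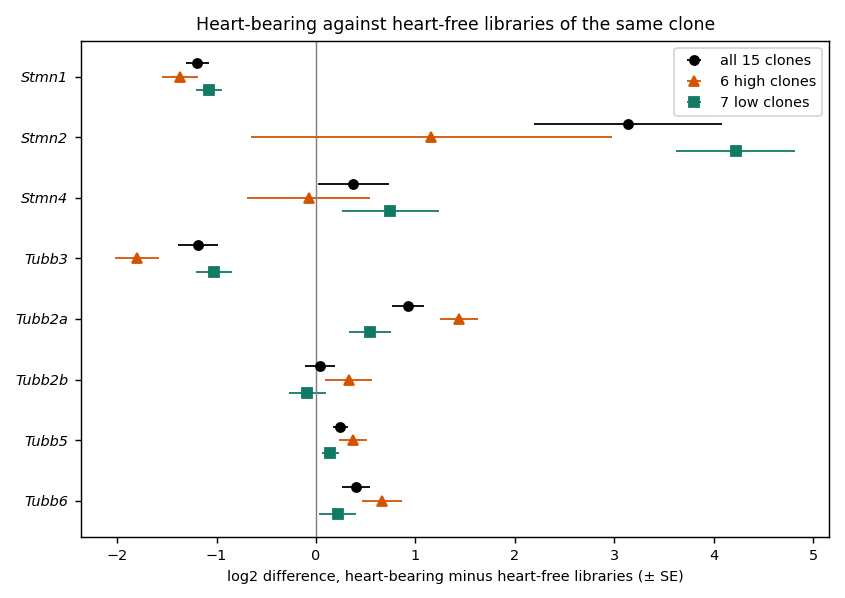
Log2 difference of each tested member between heart-bearing and heart-free libraries of the same clone, with bars of 1 SE, over all 15 clones (black), 6 high clones (orange) and 7 low clones (green). Stmn1 and Tubb3 lie left of 0 in each set, Tubb2a lies right of 0, and the Stmn2 interval of the high clones spans 0.

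Among the 6 closely alike libraries the members varied little, apart from Stmn4, Stmn2 and Tubb3. Tubb5 had 965.8 to 986.9 CPM in the 6 libraries, and 525.8 to 991.5 CPM in heart-free libraries of the same 6 clones. Tubb2b had 71.8 to 74.1 CPM in the 6 libraries, and 29.4 to 146.5 CPM in those heart-free libraries. Stmn1 had 50.2 to 55.6 CPM in the 6 libraries and 89.2 to 271.9 CPM in the heart-free libraries of those clones.

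The other genes of the tubulin and stathmin pathway were read from lists, with the closely alike libraries included. No gene of the 21 lists, marker lists included, passed in high against low clones or in intermediate against either. Between library kinds 31.8% of all 19533 genes rose and 27.3% fell, and each count below stands beside these shares. Within clones, 2 of 3 other beta tubulins rose in heart-bearing libraries: Tubb4b by log2 0.77 ± 0.08 (adjusted p = 1.16e-07, edgeR), at means of 225.6 and 133.1 CPM in heart-bearing and heart-free libraries, and the platelet form Tubb1 by 2.48, at means of 0.185 and 0.0328 CPM, near the floor. The neuronal and glial form Tubb4a differed by -0.06. Of 7 tested alpha tubulins 4 rose and 1 fell, with Tuba1a higher by 0.45, Tuba4a by 0.29, and Tuba1b, at means of 188.5 and 180.7 CPM, differing by 0.11 (adjusted p = 0.226). Of 4 gamma, delta and epsilon tubulins, which nucleate microtubules or serve centrioles, 1 fell, Tubg1, by log2 -0.42, while Tubd1 (-0.26) and Tube1 (-0.21) did not pass.

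Of 7 genes for tubulin folding and autoregulation 1 rose and 4 fell in heart-bearing libraries, with Tbca at -0.74, Tbcb at -0.25, Tbcd not past the test at -0.03, and Ttc5, which recognises the nascent start of tubulins, at -0.40. Among 9 tubulin-modifying enzymes 1 rose and 5 fell, and of its most abundant genes Ttll5 fell by log2 -0.48 while Ttll12 (-0.21) and Hdac6 (-0.12) did not pass. Of 21 microtubule-associated genes 5 rose and 8 fell, where 31.8% and 27.3% of all genes did. The kinesin Kif5b fell by log2 -0.27, Map1b by -0.46 and Dpysl3 by -0.57, whereas Mapt, which encodes tau, rose by 1.73. Of 11 kinases that phosphorylate stathmins 3 rose and 3 fell, with Mapk3 at -0.38 and Uhmk1 at -0.46 among those that fell.

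Of the 9 genes of the REST complex 7 fell in heart-bearing libraries, where 27.3% of all genes fell. They include Rest at log2 -0.32, Ehmt2 at -0.25, Kdm1a at -0.53 and Hdac2 at -0.73. In high against low clones 0 of 9 had a positive difference over all libraries, with a median of -0.16, and 2 of 9 in heart-free libraries, none past the test. Among all genes 8953 of 18551 and 7760 of 15635 were positive. Of 24 tested neuronal genes 12 rose, where 31.8% of all genes rose, and 1 fell, Celf4, by -1.08. Eno2, which encodes a neuronal glycolytic enzyme, rose by 2.84, while Ncam1 (-0.06) and Uchl1 (-0.49), both among its 3 most abundant genes, did not pass. Of 5 tested neuroendocrine and islet factors 1 rose and 0 fell, and Insm1 (-0.16) and Rfx6 (0.59) did not pass. Of 24 proliferation genes 2 rose and 10 fell, with Mcm6 at -0.69 and the marker Mki67 (-0.30) and Top2a (-0.19) not past the test. In high against low clones 0 of 24 proliferation genes had a positive difference over all libraries, with a median of -0.34, and 2 of 24 in heart-free libraries, against 8953 of 18551 positive among all genes.

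Of all genes 31.8% rose and 27.3% fell in heart-bearing libraries. Among marker lists, all 4 heart and all 6 liver markers rose there, as did all 5 leukocyte, 3 of 4 macrophage, all 5 fibroblast and all 4 endothelial markers. Of the neuron markers 2 of 7 tested rose, of the Schwann cell markers 2 of 4 and of the islet markers 2 of 2, and 3 of 6 tumour epithelium markers fell. These moved with the library kind, and their part in the differences of the members was not tested.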

How the data were processed

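The members, gene lists and comparisons were chosen with earlier results of these data known. The authors deposited raw counts per gene, as whole numbers, for 39 libraries. The submitters' processing notes name STAR, featureCounts and mm10. Versions, annotation release and strand setting are not stated there, so overlapping or antisense genes cannot be told apart. Coordinates and transcripts are from GENCODE M21 on GRCm38, which held 37693 of the gene identifiers, and promoters are from RefSeq on GRCm38.p6. Where 1 of 214 symbols occurred in several rows, the most abundant row stood for it.

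CPM used TMM factors over all 39 libraries (0.878 to 1.10). The counts of a clone were summed for the class comparisons, genes were kept with filterByExpr, and edgeR 4.0.16 (R 4.3.3) gave quasi-likelihood tests with Benjamini-Hochberg adjusted p under 0.05. Clone p-values measure the spread between these sums. The SE of an edgeR difference was derived from its test, as the size of the log2 difference divided by the square root of the F statistic. Heart-bearing and heart-free libraries were compared per library with clone as a block. The alternatives were RLE factors, no filter, DESeq2 1.42.0, other library sets and left-out clones. The fits were also run on simulated counts, drawn independently with the same dispersion for every gene, unlike these clones. That run tested the code and not the results on these data. Likeness was Pearson's r of log2 CPM with a prior count of 2 over genes of at least 5 CPM. Named were all members, from each list the 3 genes with the highest heart-free level, and the genes most like a member, 10 for Stmn2 and 3 for the others, passing over Gm, Rik and pseudogene symbols. Marker lists are given by counts and sums only. Some list genes are not reported here. H2-M2, Mapt, Ttc5, Rest, Eno2 and Pcna were named after their values were seen. Intervals cover counting error only, since reads are not independent molecules.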

Additional observations from a re-analysis of the deposited data

Results flagged for a closer look

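Among 36 sets of class and library kind over the members, 4 held 1 clone far from the rest of its class by Dixon's test at 95%. Chance alone flags about 1 set in 20 where values follow a normal curve, which values near 0 do not. Stmn4 reached 4.49 CPM in heart-free yfp_6555c3, where the next of 6 high clones had 0.347 CPM, and 0.821 CPM in heart-bearing yfp_7160c2, where the next had 0.337 CPM. Stmn3 had 0.12 CPM in heart-free yfp_2838c3, next to 0.0362 CPM, and 0.0273 CPM in heart-bearing yfp_6620c1, where the other 5 high clones had 0. In that last set any count above 0 in 1 clone alone would be flagged. These Stmn3 levels are near or below the floor of 3 counts in a library. The floor was 0.0818 CPM in the heart-bearing library of yfp_6620c1, above its 0.0273 CPM of Stmn3.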

How the results depend on the processing

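Counts of genes called under other settings differed from those of the report in 10 of 32 cases. DESeq2 called 123 genes in high against low clones over all libraries, 299 in heart-free libraries and 18 in intermediate against low clones. With each library a replicate and the number at the end of the title, whose meaning the labels do not give, as a replicate block, 7 genes were called in high against low, 73 in intermediate against low and 1 in intermediate against high clones. The number is shared by nearly all heart-bearing libraries, so it does not pair libraries beyond their kind, and no member was called with the block. Intermediate against low clones gave 0 genes in heart-free libraries, and 0 to 99 with 1 intermediate clone left out, where the spread comes from the other classes. In high clones alone 7514 genes were called between library kinds.

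Some uncalled members changed sign. Between intermediate and low clones, leaving out 1 intermediate clone gave -0.21 to 2.69 for Stmn2, -1.21 to 0.43 for Stmn4 and -0.32 to 0.28 for Tubb2a, and heart-free libraries gave 0.27 for Stmn4. Between intermediate and high clones, leaving out 1 gave -0.32 to 0.28 for Tubb2a, -0.032 to 0.040 for Tubb2b, -0.38 to 0.066 for Tubb5 and -0.50 to 0.22 for Tubb6. Heart-free libraries gave 0.43 for Tubb2a, 0.21 for Tubb2b and 0.085 for Tubb6, and for Tubb2a the value was 0.0032 without a filter and 0.029 with the replicate block. Between library kinds, Stmn4 was -0.075 in high clones alone, and Tubb2b was -0.090 in low clones alone and -0.18 without the closely alike libraries. Without the closely alike libraries, an alternative chosen after seeing the data, the difference between high and low clones in that contrast was 0.87 for Stmn2, 0.18 for Stmn4 and -0.17 for Tubb2b. The causes were not tested.

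Some calls between library kinds were lost. Adjusted p was 0.0552 for Tubb2a, 0.204 for Tubb5 and 0.368 for Tubb6 in low clones alone, 0.0585 for Tubb5 in high clones alone, and 0.0590 for Stmn2 in the comparison by title number (edgeR).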

Other observations

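The 3 libraries with no class entered no comparison. The heart-bearing library of yfp_6883c1 had 50.6 CPM of Tubb3 and that of yfp_6883c4 34.3 CPM, the highest of the 19 heart-bearing libraries, where the others reached 24.2 CPM. Stmn2 was at 20.98 CPM in yfp_6883c1, the highest heart-bearing value, and at 9.01 CPM in yfp_6883c4, which is 10.7 and 2.55 CPM per 1000 CPM of heart transcripts. The heart-free library of yfp_7062c3 had 295.3 CPM of Stmn1, the highest of all libraries, with 0.0915 CPM of Stmn2 and 22.6 CPM of Tubb3.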
